A study of Mus musculus with 4 samples.

Results

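Genes of thyroid hormone signalling were read in cerebrums of mice lacking the lysolipid transporter Mfsd2a in endothelium: the receptors Thra and Thrb, the deiodinases Dio2 and Dio3, the targets Hr, Klf9 and Nrgn, and the hormone-binding protein gene Crym. These 8 genes were chosen by name. Of them 7 had at least 1 probe set (a group of array probes for a transcript) annotated with a single gene symbol, 18 probe sets in all among 45101 on the array, and they stand among 18194 genes named in this way. Dio3, whose product inactivates the hormone, was matched to no such probe set and was not analysed here. Where a gene had several probe sets, the brightest one by mean log2 signal gave its value; Thrb, with a mean signal below 50, was the dimmest, and the other 6 measured genes were above 50.

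The study has 4 groups, each measured as 1 array of RNA pooled from 5 to 6 cerebrums. 2aECKO mice carried floxed Mfsd2a alleles and Tie2-cre, which is active in endothelium and also in blood cell lineages, and were read at postnatal day 9 against 2afl/fl mice of that day, which carried the floxed alleles without cre. 2aiECKO mice carried the floxed alleles and Cdh5ERT2-cre, an endothelial recombinase activated by 4-hydroxytamoxifen (4-OHT) given after birth, and were read at postnatal day 8 against 2afl/fl mice that also received 4-OHT. The 2aiECKO sample was placed by its title, which its genotype label matches, although its source name gives the constitutive knockout. The single Mfsd2a probe set read 410 in 2aECKO and 423 in 2afl/fl, and 299 in 2aiECKO and 369 in 2afl/fl 4-OHT; whether it lies within the deleted exons is unknown here, so it does not check the labels. The medians of all probe sets were 75.5 in 2aECKO and 74.1 in 2afl/fl, against 49.2 in 2aiECKO and 48.7 in 2afl/fl 4-OHT, so signals were compared within a model. With 1 array per group no difference has a replicate check or a p-value, and the precision is limited by the small number of arrays.

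Thyroid hormone acts in brain mainly through triiodothyronine (T3), much of which is made locally from thyroxine by the deiodinase of astrocytes and tanycytes, Dio2, while neurons inactivate it through Dio3. T3 binds the nuclear receptors encoded by Thra and Thrb, which sit on DNA with retinoid X receptors and exchange corepressors for coactivators when the hormone arrives. In the early postnatal rodent brain the hormone raises genes such as Hr, Klf9 and Nrgn, lowers Dio2 mRNA, and is known for its part in myelination and in the maturation of neurons. Thrsp (Spot 14) was first described as a thyroid-responsive gene of liver and promotes fatty acid synthesis, and it was higher in both knockouts, which raises the question whether the classic brain targets were higher with it.

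They were not higher than in the control of the same model. In 2aECKO all 7 measured genes had a log2 fold (2aECKO minus 2afl/fl) below 0, from -0.48 for Hr to -0.02 for Thra, while Thrsp had 0.59. After quantile normalization over 4 arrays, 2 of the 7 were below 0 when the control of the other model was used, with a median of 0.24, and 4 of 7 with the mean of both controls. Against the other model's control, Klf9 had 0.35 and Nrgn 0.37, while Hr had -0.40. In 2aiECKO the log2 folds over 2afl/fl 4-OHT ran from -0.24 for Nrgn to 0.05 for Dio2, with 5 of 7 genes below 0, while Thrsp had 0.66. Over the 12426 genes whose mean signal reached 50, a log2 fold below 0 was found for 51.5 percent in 2aECKO and 50.9 percent in 2aiECKO. By the study's size rule, a log2 fold of at least 0.32 with a knockout signal of at least 50, 0 of the 7 genes were higher in either knockout, against 2.04 percent of all genes in 2aECKO and 1.77 percent in 2aiECKO. By the mirror rule, a ratio of knockout to control of at most 0.8 with a control signal of at least 50, 1 gene was lower in 2aECKO, Hr, and 0 were lower in 2aiECKO, where all genes gave 1.44 and 0.523 percent. The Hr call was lost at a minimum signal of 100 and at a fold of 1.5. The 7 genes had a median of -0.28 in 2aECKO and -0.07 in 2aiECKO, and the 6 brighter ones of -0.20 and -0.05, beside -0.01 and 0.00 over all genes.

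**Figure D1:**
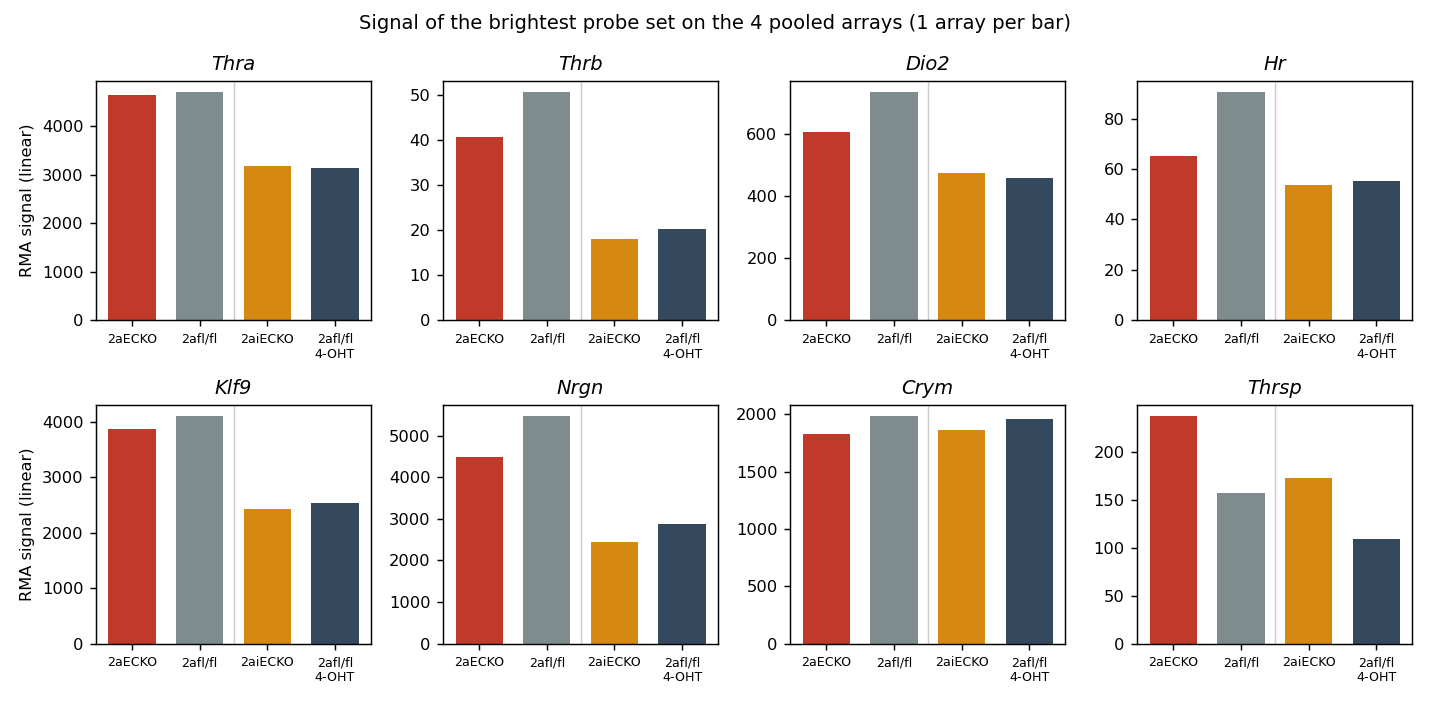
RMA signal on a linear axis (vertical) at the brightest probe set of the 7 measured thyroid hormone genes and of Thrsp on each pooled array (horizontal); each bar is 1 array and a grey line separates the models. Hr reads 65.0 in 2aECKO and 90.5 in 2afl/fl, while Thrsp reads higher in each knockout than in its control.

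Hr encodes a nuclear corepressor that binds thyroid hormone receptors and is among the most directly hormone-induced genes of neonatal rodent brain. Its brighter probe set read 65.0 in 2aECKO and 90.5 in 2afl/fl, a log2 fold of -0.48, and 53.9 in 2aiECKO and 55.2 in 2afl/fl 4-OHT, a log2 fold of -0.04. Only 34 of the 12426 genes had a lower fold than Hr in 2aECKO, whereas in 2aiECKO 37.2 percent did. The other Hr probe set, with a mean signal below 50, read 56.9 in 2aECKO and 71.7 in 2afl/fl, and 28.5 in 2aiECKO and 26.5 in 2afl/fl 4-OHT, log2 folds of -0.33 and 0.10. Hr was thus lower at both probe sets in 2aECKO, and its signals in the 2aiECKO pair lay close together. The array reads weakly at the Hr levels of both pairs. In 2aECKO the brighter probe set, at 65.0, lay below the median of all probe sets, 75.5.

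Nrgn encodes neurogranin, a calmodulin-binding protein of the postsynapse of excitatory neurons and a direct hormone target in rodent brain. It read 4482 in 2aECKO and 5466 in 2afl/fl, a log2 fold of -0.29, and 2437 in 2aiECKO and 2881 in 2afl/fl 4-OHT, a log2 fold of -0.24. The difference was of similar size in both models, and 2.14 percent of genes in 2aECKO and 1.92 percent in 2aiECKO had a lower fold, but neither fold reached the size limit. Of 8 measured markers of excitatory neurons, 5 were below 0 in 2aECKO and 5 in 2aiECKO, near the share of all genes, with 2 and 1 past the limit and medians of -0.08 and -0.12. Their summed signal was 8490 in 2aECKO and 9318 in 2afl/fl, and 6795 in 2aiECKO and 7131 in 2afl/fl 4-OHT. The vesicular glutamate transporter gene Slc17a7 had -0.39 in 2aECKO and -0.21 in 2aiECKO, and the kinase gene Camk2a -0.36 and -0.17. The other glutamate transporter gene Slc17a6 had 0.17 and 0.08. The cortical factors were split. Fezf2 had -0.30 in 2aECKO and -0.22 in 2aiECKO, and Cux2 -0.15 and -0.35, the latter past the limit. Neurod2 had 0.02 and -0.07, Neurod6 0.01 and 0.02, and Tbr1 0.00 and 0.10. All 5 pan-neuronal markers were below 0 in both models, by medians of -0.08 and -0.04. The part of these cells in the Nrgn values was not tested, and in pooled tissue fewer cells of a type and less RNA per cell cannot be told apart.

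Klf9 encodes a zinc-finger factor that takes part in neuronal and oligodendrocyte maturation and had 7 probe sets. The brightest read 3877 in 2aECKO and 4100 in 2afl/fl, a log2 fold of -0.08, and 2419 in 2aiECKO and 2534 in 2afl/fl 4-OHT, a log2 fold of -0.07. The probe set next to it in brightness, with nearly the same mean signal, had -0.14 and -0.04. That one gives the Klf9 value where specific probe sets alone are used. This choice goes by name and drops every probe set with the suffix _a, _s or _x, among them the brightest, an _a one. Whether the brightest also matches other genes was not examined. In 2aECKO all 7 lay below 0, between -0.30 and -0.07. In 2aiECKO 6 lay below 0, between -0.15 and -0.02, and 1 of less specific design read 231 in 2aiECKO and 191 in 2afl/fl 4-OHT, a log2 fold of 0.27. The size of the Klf9 difference in 2aECKO therefore depended on the probe set, and none of the 7 reached the size limit in either model.

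Over all 18 probe sets of the 7 genes the log2 fold was below 0 at 18 in 2aECKO and at 12 in 2aiECKO. Of the 34958 probe sets with a single symbol, 51.5 percent were below 0 in 2aECKO and 49.6 percent in 2aiECKO. Probe sets of 1 gene share its transcript and are no replicates. Only the 2 Hr probe sets passed the fold limit in 2aECKO, and 0 of 18 did in 2aiECKO. The share of all probe sets past the limit was not computed. For genes, the share lower past it was 1.44 percent in 2aECKO and 0.523 percent in 2aiECKO.

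**Figure D2:**
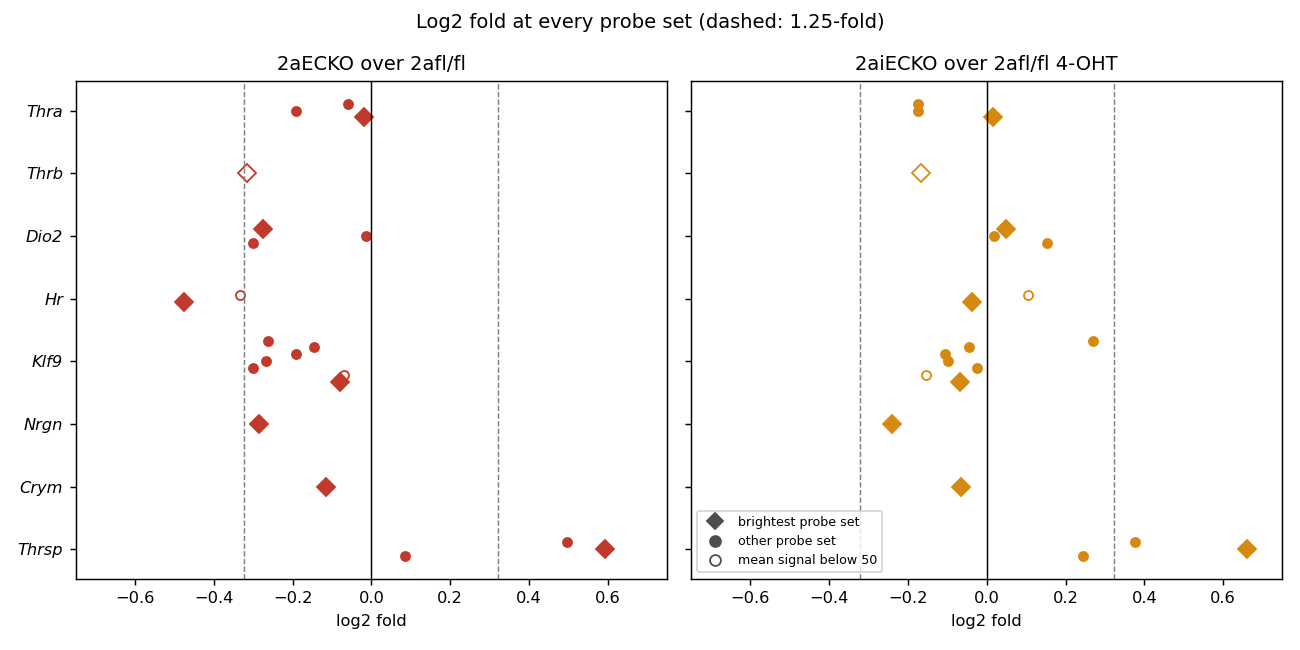
Log2 fold (horizontal) at each probe set of the 7 measured genes and of Thrsp (vertical), in 2aECKO over 2afl/fl (left panel) and 2aiECKO over 2afl/fl 4-OHT (right panel); diamonds are the brightest probe set of a gene, open symbols have a mean signal below 50, and dashed lines mark the size limit of 0.32. All 18 points of the thyroid hormone genes lie left of 0 in 2aECKO and 12 of them in 2aiECKO, while the 3 Thrsp points lie right of 0 in both.

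Thra, the receptor gene that accounts for most T3 receptor of brain, was near its control level. Its brightest probe set read 4634 in 2aECKO and 4697 in 2afl/fl, and 3177 in 2aiECKO and 3141 in 2afl/fl 4-OHT, log2 folds of -0.02 and 0.02. The other probe sets had -0.06 and -0.19 in 2aECKO and -0.17 and -0.17 in 2aiECKO, and which splice forms each reads is unknown here. A splice form of Thra does not bind T3. Nr1d1, a clock gene transcribed from the opposite strand that overlaps the end of Thra, had 0.05 in 2aECKO and -0.01 in 2aiECKO. Thrb, the other receptor gene, read 40.7 in 2aECKO and 50.6 in 2afl/fl, and 18.0 in 2aiECKO and 20.3 in 2afl/fl 4-OHT, log2 folds of -0.32 and -0.17. The ratio of 0.803 in 2aECKO lay just outside the limit of 0.8, at a signal where the array reads weakly.

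Receptors recognise the 6-letter motif AGGTCA, usually as a spaced repeat. It was searched on both strands in the 250 bases before the start of each gene in the RefSeq promoter table (GRCm38.p6), where 14.0 percent of 32851 windows hold it. The table covers Thrb, Dio2, Dio3, Klf9, Nrgn and Thrsp, in 7 windows, and 1 of these holds the motif, at a Thrb start, where it begins 184 bases before the start. That stretch is shown because it is the sole match among these genes, with the motif in capitals, on the plus strand at chr14:17660749-17660808:
Thrb: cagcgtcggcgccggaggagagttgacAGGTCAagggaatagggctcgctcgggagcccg
A match in this window describes the letters, not a bound site, and enhancers farther away were not searched.

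Dio2 is the enzyme gene through which astrocytes supply T3. Its brightest probe set read 605 in 2aECKO and 732 in 2afl/fl, a log2 fold of -0.28, and 473 in 2aiECKO and 457 in 2afl/fl 4-OHT, a log2 fold of 0.05. The others had -0.30 and -0.01 in 2aECKO and 0.15 and 0.02 in 2aiECKO, so the probe sets disagreed on the size in 2aECKO and were all above 0 in 2aiECKO. Astrocyte markers ran the other way in 2aECKO: of 13 markers, 11 were above 0, with a median of 0.09 and a summed signal of 31513 in 2aECKO and 28145 in 2afl/fl. In 2aiECKO all 13 were above 0, with a median of 0.26 and sums of 23525 in 2aiECKO and 19856 in 2afl/fl 4-OHT. Gfap, the filament gene raised in reactive astrocytes, had 0.89 in 2aECKO and 0.90 in 2aiECKO. Tanycytes, the cells of the third ventricle wall that are rich in Dio2, had 3 measured markers. At the brightest probe sets Frzb had -0.24 in both models and Col23a1 had -0.07 in both. Dimmer probe sets did not keep this match. That of Frzb gave -0.26 for 2aECKO but -0.07 for 2aiECKO. Of the dimmer Col23a1 probe sets, one was above 0, at 0.05 and 0.31, and the other below, at -0.01 and -0.08. Rax had 0.15 and -0.16 at signals below 50. The part of astrocytes and tanycytes in the Dio2 values was not tested. Dio3os, the noncoding neighbour of Dio3 in antisense orientation, read 51.8 in 2aECKO and 53.9 in 2afl/fl, and 47.3 in 2aiECKO and 53.0 in 2afl/fl 4-OHT, log2 folds of -0.06 and -0.16.

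Crym encodes mu-crystallin, which binds T3 in the cytosol of forebrain neurons. It read 1830 in 2aECKO and 1983 in 2afl/fl, a log2 fold of -0.12, and 1866 in 2aiECKO and 1953 in 2afl/fl 4-OHT, a log2 fold of -0.07. Both lay within the middle of all genes, 17.3 and 26.5 percent of which had a lower fold.

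Thrsp stood apart from the receptors, Dio2, the targets and Crym in both models. Its brightest probe set read 237 in 2aECKO and 157 in 2afl/fl, and 173 in 2aiECKO and 109 in 2afl/fl 4-OHT. Only 0.24 percent of genes in 2aECKO and 0.19 percent in 2aiECKO had a higher fold. The log2 fold of Thrsp exceeded the median of Hr, Klf9 and Nrgn by 0.88 in 2aECKO and by 0.73 in 2aiECKO, and that of Thra, the nearest of the 7 genes in 2aECKO, by 0.61. The excess over the targets was 0.46 in 2aiECKO over the mean of probe sets, and 0.32 in 2aECKO with the control of the other model. Its other probe sets had 0.50 and 0.09 in 2aECKO and 0.38 and 0.24 in 2aiECKO, so that the dimmest, at 0.09 in 2aECKO, was below the limit. Of 8 other hormone-responsive genes of fatty acid synthesis, 4 passed the limit upward in 2aECKO and 2 in 2aiECKO, and 0 passed it downward. Over all genes, 2.04 percent in 2aECKO and 1.77 percent in 2aiECKO passed it upward, and 1.44 and 0.523 percent downward. The 7 listed genes with a mean signal over 50 had medians of 0.35 and 0.16. The desaturase gene Scd1 had 0.86 in 2aECKO and 0.39 in 2aiECKO, the regulator Srebf1 0.85 and 0.61, the synthase gene Fasn 0.42 and 0.16, and the Thrsp paralogue Mid1ip1 0.35 and 0.21. The carboxylase gene Acaca had 0.24 and 0.03 and the citrate lyase gene Acly 0.31 and 0.10, within the limit, and the dim factor gene Mlxipl 0.00 and 0.23. Malic enzyme, Me1, induced by T3 in liver, was the one below 0, and it read 1452 in 2aECKO and 1563 in 2afl/fl, and 968 in 2aiECKO and 1124 in 2afl/fl 4-OHT, log2 folds of -0.11 and -0.21. These genes answer to Srebp-1 as well as to thyroid hormone, and the list was made with their values in these arrays known.

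**Figure D3:**
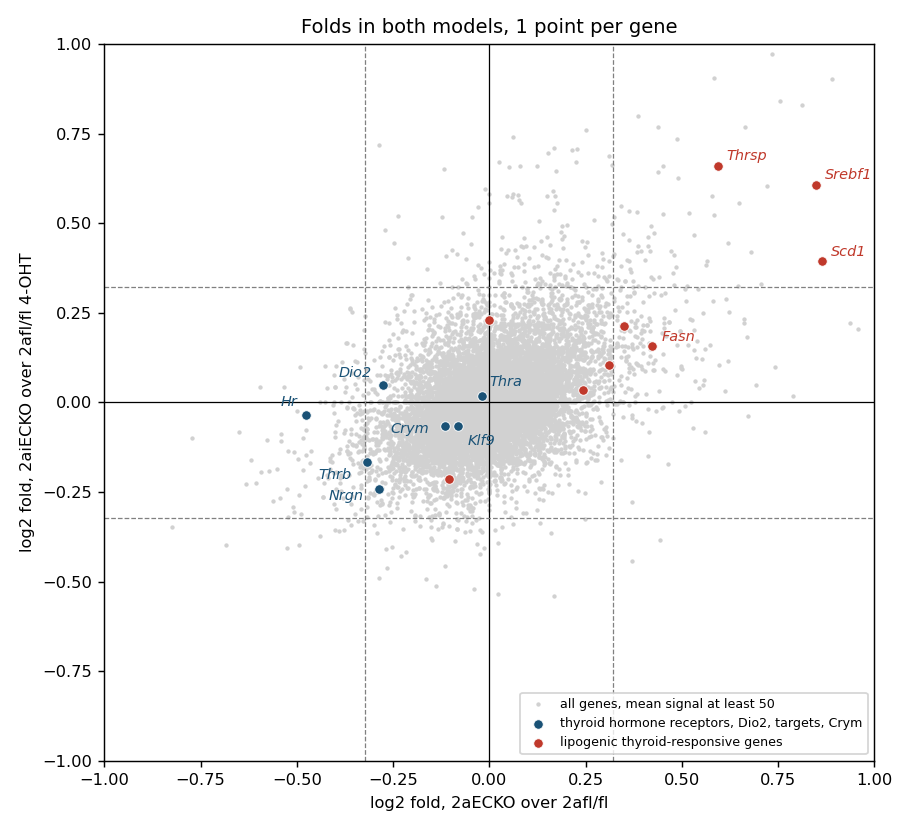
Log2 fold in 2aECKO over 2afl/fl (horizontal) and in 2aiECKO over 2afl/fl 4-OHT (vertical), 1 point per gene; grey points are genes whose mean signal reached 50, blue points the 7 measured thyroid hormone genes, red points 9 lipogenic thyroid-responsive genes, dim genes included among the coloured ones, and dashed lines mark the size limit of 0.32. The blue points lie left of 0 and Thrsp at 0.59 and 0.66; 6 grey genes lie outside the axes.

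At their brightest probe sets, 0 of the genes that carry, convert or transmit the hormone passed the size limit in either direction in either model. Over all genes, 2.04 percent were higher and 1.44 percent lower past it in 2aECKO, and 1.77 and 0.523 percent in 2aiECKO. Of 11 nuclear partners and coregulators, the median was 0.01 in each model. Gps2, a corepressor subunit, had the highest fold in 2aECKO, at 0.09, and Rxrg, a retinoid X receptor, the highest in 2aiECKO, at 0.10. Among 7 genes of hormone transport and binding, 4 were above 0 in 2aECKO and 3 in 2aiECKO. Slco1a4, an organic anion carrier of brain endothelium, had 0.26 in 2aECKO and 0.21 in 2aiECKO. Ttr, the thyroxine-binding protein made by choroid plexus, had 0.20 and 0.17. A higher fold than Slco1a4 was found for 3.81 and 5.45 percent of genes, and a higher fold than Ttr for 6.61 and 8.02 percent. The other 3 Ttr probe sets had 0.45, 0.31 and 0.25 in 2aECKO, where the first was past the limit, and 0.23, 0.23 and 0.18 in 2aiECKO. Markers of choroid plexus were above 0 beside Ttr at 5 of 5 genes in both models, Ttr being counted among them, with Otx2 at 0.65 and 0.56; the part of that tissue was not tested. Slco1c1, the thyroxine carrier of brain capillaries and astrocytes, named after its values were seen, read 1396 in 2aECKO and 1597 in 2afl/fl, and 1134 in 2aiECKO and 1284 in 2afl/fl 4-OHT, log2 folds of -0.19 and -0.18. A lower fold was found for 6.66 percent of genes in 2aECKO and 4.93 percent in 2aiECKO. Slc7a8 of the same list had -0.15 and -0.14. Of 8 endothelial markers, 3 were below 0 in 2aECKO and 6 in 2aiECKO, with medians of 0.05 and -0.13.

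Of 9 genes that serve the making and turnover of deiodinases, Wsb1, part of the ubiquitin ligase that marks the Dio2 enzyme for degradation, had 0.29 in 2aECKO and 0.14 in 2aiECKO, reading 1234 in 2aECKO and 1012 in 2afl/fl, and 701 in 2aiECKO and 636 in 2afl/fl 4-OHT. Sephs2, needed for the selenocysteine that deiodinases contain, had -0.16 and 0.01. The 7 genes of this list with a mean signal over 50 had medians of -0.07 in 2aECKO and 0.01 in 2aiECKO. In the thyroid axis the releasing-hormone gene Trh had 0.09 and 0.00 and its receptor gene Trhr 0.17 and 0.10, while the pituitary genes Tshb and Cga and the receptor gene Tshr had mean signals below 50. Hypothalamic markers stood beside them with medians of 0.27 and 0.03, 4 of 5 being above 0 in each model, and their part was not tested. Avp was the 1 marker of the 5 past the limit, at 0.58 in both models, where all genes gave 2.04 and 1.77 percent higher.

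Further genes known to answer to the hormone in rodent brain were split. Of 17 measured, 2 were higher and 3 lower past the limit in 2aECKO, and 1 was higher and 0 lower in 2aiECKO. Over all genes, 2.04 percent were higher and 1.44 percent lower in 2aECKO, and 1.77 and 0.523 percent in 2aiECKO. The 16 listed genes with a mean signal over 50 had medians of -0.11 and 0.01. The lower genes in 2aECKO were Nefh, the heavy neurofilament chain of large axons, at -0.48, the striatal GTPase gene Rasd2 at -0.36 and the myelin gene Mobp at -0.34. Nefh read 455 in 2aECKO and 636 in 2afl/fl, and 287 in 2aiECKO and 327 in 2afl/fl 4-OHT, so that it was below its control in both models. Rasd2 had -0.15 in 2aiECKO, and its other, dimmer probe set had -0.01 in 2aECKO; of 4 striatal markers 3 were below 0 in 2aECKO and 1 in 2aiECKO, with medians of -0.13 and 0.08, and their part was not tested. Mobp had 0.07 in 2aiECKO.

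The higher genes in 2aECKO were Stard4, a sterol carrier gene that is also a target of Srebp-2, at 0.42, and the carbonyl reductase gene Cbr2 at 0.37; they had 0.11 and 0.10 in 2aiECKO. Mbp, encoding myelin basic protein, read 5806 in 2aECKO and 5629 in 2afl/fl, and 3613 in 2aiECKO and 2706 in 2afl/fl 4-OHT, log2 folds of 0.04 and 0.42. Its other probe sets ran from -0.20 to 0.06 in 2aECKO and from -0.08 to 0.39 in 2aiECKO. Only those at -0.08 and -0.04 were below 0 in 2aiECKO. Markers of oligodendrocytes stood beside Mbp, with 2 of 5 above 0 in 2aECKO and 4 of 5 in 2aiECKO. The 5 had medians of -0.04 and 0.17. Their summed signal was 4238 in 2aECKO and 3738 in 2afl/fl, and 3365 in 2aiECKO and 2808 in 2afl/fl 4-OHT, and their part was not tested. Most of each sum was Cnp alone, at 3428 in 2aECKO and 2914 in 2afl/fl, and 2875 in 2aiECKO and 2370 in 2afl/fl 4-OHT. The sums therefore do not describe the markers as a set. Microglial markers had a median of 0.05 in 2aECKO and 0.44 in 2aiECKO, where 6 of 6 were above 0.

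**Figure D4:**
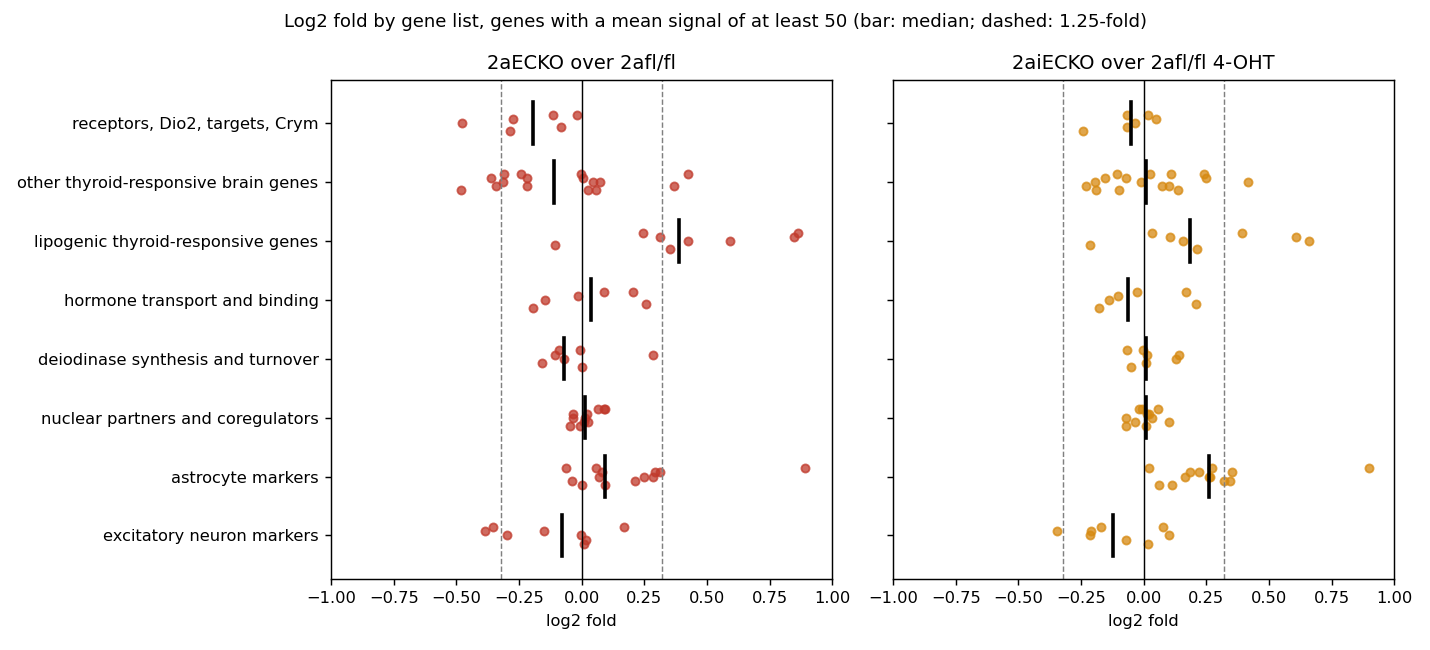
Log2 fold (horizontal) of the genes of 8 lists (vertical) whose mean signal reached 50, in 2aECKO over 2afl/fl (left panel) and 2aiECKO over 2afl/fl 4-OHT (right panel); each point is 1 gene, black bars are list medians and dashed lines mark the size limit of 0.32. Lipogenic genes lie mostly right of 0 and Thra, Dio2, the targets and Crym left of 0 in 2aECKO.

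Levels also differed between the controls, which differ in age, in 4-OHT treatment and in how their arrays were scaled. After quantile normalization over all 4 arrays, 6 of the 7 genes were brighter in 2afl/fl at day 9 than in 2afl/fl 4-OHT at day 8: Nrgn by a log2 difference of 0.66, Thrb by 0.60, Klf9 by 0.43, Dio2 by 0.37, Thra by 0.32 and Hr by 0.13, beside -0.06 for the median of all genes. A larger difference was found for 1.20 percent of genes in the case of Nrgn, 8.01 percent for Thra and 21.7 percent for Hr. The share of all genes brighter in 2afl/fl was not computed. Crym had -0.27 and Thrsp 0.05. The X-inactivation gene Xist had 0.88 and the Y-linked Eif2s3y -1.85 in the same comparison, so the sex makeup of the controls differed too. Age, 4-OHT, sex makeup and the separate scaling of the arrays cannot be told apart here.

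Genes with folds most like those of Hr, the member past the limit, were sought by the distance over both log2 folds, that is over 2 comparisons of 4 arrays. The nearest were the channel gene Trpv4 at -0.50 and -0.02, the interneuron gene Pvalb at -0.48 and -0.08, and the pigment gene Oca2 at -0.44 and 0.00, and 18 genes lay within 0.1 of Hr.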

How the data were processed

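Pooled cerebrum RNA was measured on Affymetrix Mouse 430 2.0 arrays. The values deposited by the authors are intensity values on a linear scale from RMA, which adjusts background and applies quantile normalization. The software is given as affy in the methods and as Partek 6.6 in the submitters' processing notes. Sorted log2 values differed by at most 0.07 and 0.05 within the pairs and by up to 0.79 across the controls. Folds were therefore taken within a pair as differences of log2 intensity. Of 45101 probe sets, 34958 carry 1 symbol, 932 several and 9211 are unnamed here; symbols were updated through RefSeq gene identifiers (GRCm38.p6).

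The members and gene lists were chosen with earlier results of these data known. Named in the text are all members, Thrsp, list genes past the size limit, the 2 with the largest fold in each list, and the 3 genes most like a member past that limit; markers and other genes named as examples were picked after their values were seen. No test was made across samples. The alternatives tried were averaging a gene's probe sets, using specific probe sets alone, centring, quantile normalization over 4 arrays, loess removal of an intensity trend (fraction 0.3), other controls, and other limits. Python 3.11.15, numpy 2.4.6, pandas 2.3.3, statsmodels 0.14.6 and matplotlib 3.10.9 were used.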

Additional observations from a re-analysis of the deposited data

Results flagged for a closer look

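Single probe sets of Dio2, Hr and Klf9 had folds of opposite sign in the models, each larger than the spread of all genes (robust SD of 0.12 in 2aECKO and 0.10 in 2aiECKO). The difference of the log2 folds, 2aECKO minus 2aiECKO, was -0.45 at a dimmer Dio2 probe set, with -0.30 and 0.15, -0.44 at the dimmer Hr probe set, with -0.33 and 0.10, and -0.53 at a Klf9 probe set of less specific design, with -0.26 and 0.27. None of these differences was tested, and the brightest probe sets of Hr and Klf9 did not have opposite signs.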

How the results depend on the processing

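The number of measured thyroid hormone genes below 0 stayed at 7 of 7 in 2aECKO and 5 of 7 in 2aiECKO under the mean of probe sets, specific probe sets, centring, quantile normalization over 4 arrays and removal of an intensity trend. The count of genes lower in 2aECKO, 1 as reported, was 0 at a minimum signal of 100 and 0 at a fold of 1.5. The excess of Thrsp over the median of Hr, Klf9 and Nrgn was 0.68 in 2aECKO and 0.46 in 2aiECKO over the mean of probe sets. With the other model's control after quantile normalization over 4 arrays, the median of the 7 genes turned to 0.24 in 2aECKO and was -0.31 in 2aiECKO. The genes higher in 2aECKO numbered 2, the targets Klf9 at 0.35 and Nrgn at 0.37. Those lower numbered 2 in 2aECKO and 2 in 2aiECKO. The share of all genes past the limit was not computed with other controls. The excess of Thrsp was 0.32 and 1.05. With the mean of both controls the medians were -0.062 in 2aECKO and -0.14 in 2aiECKO, 1 gene was lower in 2aiECKO, and the excess was 0.61 and 0.86. By construction, both settings carry the difference between the controls into the fold. With the other control 5 of the 7 genes turned above 0 in 2aECKO, while Hr kept -0.40 and Crym -0.38; with the mean of both, Hr had -0.47 and Crym -0.24. Thrb, the weaker Hr probe set and Rax had mean signals over the 4 arrays below 50.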

Other observations

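Further genes of the thyroid-responsive list did not pass the size rule, which also asks for a signal of at least 50. Camk4, a calcium-dependent kinase, had -0.31 in 2aECKO and -0.20 in 2aiECKO (log2 fold, brightest probe set), and all 5 of its probe sets were below 0 in both models, the lowest at -0.49 and -0.31. Nefm, the medium neurofilament chain, had -0.31 and -0.10, and Sema7a, a guidance protein, -0.22 and -0.23, with -0.39 and 0.02 at its dimmer probe set. Bdnf, a neurotrophin gene, had -0.24 in 2aECKO and 0.24 in 2aiECKO. Pcp2, a Purkinje cell gene with a mean signal below 50, read 44.9 in 2aECKO and 31.9 in 2afl/fl, and 30.0 in 2aiECKO and 49.2 in 2afl/fl 4-OHT. The other Pcp2 probe sets did not share the higher reading in 2aECKO, with -0.22 and -0.19 there and -0.20 and -0.17 in 2aiECKO. These genes were named after their values were seen, and no difference among them was tested.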
